A study of Rattus norvegicus with 16 samples.

Results

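The epidermal growth factor (EGF) family ligands and their ErbB receptors were followed in denervated rat skin. The family was taken as every probeset annotated to 1 of 10 genes. These were 5 ligands for the epidermal growth factor receptor (Tgfa, Areg, Hbegf, Ereg and Btc), neuregulin 1 (Nrg1), and the 4 receptors Egfr, Erbb2, Erbb3 and Erbb4. All 10 were measured, among 14217 genes with a probeset of their own, and they had 20 probesets, of which Nrg1 had 8, Egfr 3, Tgfa 2 and each of the others 1. Expression was measured on 16 whole-genome Affymetrix rat arrays of adult female Sprague-Dawley rats. Skin denervated for 7 days (7 d, n = 5) or 14 days (14 d, n = 5) came from rats whose left dorsal and lateral cutaneous nerves had been cut and ligated, with the nerves of the segment between the denervated strips left intact as a source of collateral sprouts. Skin of untreated, naïve rats (n = 6), which had no surgery, came from the same thoracic region, so that nerve section, incision and time after surgery cannot be told apart in a comparison with naïve skin. Each piece held hairy skin together with the attached cutaneous trunci muscle, whose own nerve supply was not cut. All values are log2 values after robust multi-array averaging (RMA), in which a difference of 1 is a doubling of signal, and a called gene is one with a Benjamini-Hochberg adjusted p under 0.05 in limma over all 14217 genes.

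The ligands of this family are made as membrane-anchored precursors, and proteases of the ADAM family release them to act on neighbouring cells. TGF-alpha, amphiregulin, epiregulin, HB-EGF and betacellulin bind EGFR, and in skin they are products of keratinocytes that act on keratinocytes, in renewal of the epidermis, in the hair cycle and in wound closure. Neuregulin 1 instead binds ErbB3 and ErbB4. ErbB2 has no ligand of its own and serves as partner to the others, and ErbB3, whose kinase is nearly inactive, signals through that partnership. In peripheral nerve, neuregulin 1 on axons is the signal by which Schwann cells, through ErbB2 and ErbB3, survive, divide and make myelin, and Schwann cells cut off from axons can make neuregulin 1 themselves.

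Promoter sequences are shown for Areg, Tgfa and Hbegf, 3 epidermal ligands for which every 14 d array was above naïve replicates 3 to 6. That of Btc, for which no 14 d array was above all of these, is shown as well. All were chosen after the values had been seen. The windows of 300 bases run from 250 before to 50 after the annotated start, 5′ to 3′ on the gene's strand, from the RefSeq annotation of GRCr8, in which Btc, Areg and Ereg are neighbouring genes on chromosome 14. Their positions are chr14:17265592-17265891 on the minus strand for Areg, chr4:120175469-120175768 on the plus strand for Tgfa, chr18:28390171-28390470 on the minus strand for Hbegf and chr14:16992418-16992717 on the plus strand for Btc. Capitals mark matches on either strand to the following motifs. The cyclic AMP response element was searched as TGACGTCA. The binding motif of AP-1 was searched as TGANTCA. A box near many starts, the TATA box, was searched as TATAAA. The GC box, a motif of Sp1, was searched as GGGCGG.
Areg: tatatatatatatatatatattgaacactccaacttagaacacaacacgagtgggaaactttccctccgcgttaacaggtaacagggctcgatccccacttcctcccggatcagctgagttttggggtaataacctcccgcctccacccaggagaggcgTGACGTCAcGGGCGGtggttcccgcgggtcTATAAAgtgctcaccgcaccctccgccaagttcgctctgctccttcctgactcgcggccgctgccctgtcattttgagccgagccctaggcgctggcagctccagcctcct
Tgfa: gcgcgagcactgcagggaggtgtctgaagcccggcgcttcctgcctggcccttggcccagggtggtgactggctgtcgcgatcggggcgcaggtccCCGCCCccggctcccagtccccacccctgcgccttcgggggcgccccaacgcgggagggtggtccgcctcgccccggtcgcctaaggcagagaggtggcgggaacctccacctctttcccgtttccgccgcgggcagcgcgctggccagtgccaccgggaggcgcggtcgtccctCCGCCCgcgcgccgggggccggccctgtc
Hbegf: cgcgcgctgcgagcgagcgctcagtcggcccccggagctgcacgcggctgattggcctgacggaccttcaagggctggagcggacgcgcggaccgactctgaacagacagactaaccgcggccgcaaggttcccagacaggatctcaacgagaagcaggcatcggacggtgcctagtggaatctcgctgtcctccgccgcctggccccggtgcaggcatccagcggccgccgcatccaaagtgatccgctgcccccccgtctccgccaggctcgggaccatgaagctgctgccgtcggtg
Btc: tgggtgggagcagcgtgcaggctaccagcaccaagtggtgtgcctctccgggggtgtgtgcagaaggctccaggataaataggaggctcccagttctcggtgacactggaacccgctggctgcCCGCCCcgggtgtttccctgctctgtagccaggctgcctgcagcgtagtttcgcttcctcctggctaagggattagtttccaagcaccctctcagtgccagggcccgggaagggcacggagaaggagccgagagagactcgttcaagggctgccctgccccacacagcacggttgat

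Areg was the only 1 of the 7 member genes with a window in the table to hold TGACGTCA, which 1.83% of all 33469 windows hold, and also the only 1 with TATAAA, found in 14.2% of windows. The letters GGGCGG were in the windows of 6 of the 7 (Areg, Tgfa, Btc, Egfr, Erbb2 and Erbb4), against 33.1% of all windows, and TGANTCA was in none of the 7, against 7.33%. The matches of Areg lay close together without overlap, in the order response element, GC box and TATA box towards the start. G and C made up 56 to 76.7% of the letters in the 7 windows, and their share in all windows was not examined. The count of GGGCGG is thus not read as an excess. The matches are descriptions of the letters and say nothing of binding.

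The naïve arrays were not alike, and this touched most of the family. The list of 8 measured hair follicle genes (inner root sheath and hair shaft genes such as Krt25, Krt71 and Tchh, with Msx2 and Lef1) had a mean level of 9.90 to 12.16 at 7 d and 12.27 to 12.37 at 14 d. In naïve skin replicates 1 and 2 had 12.32 and 12.50, and the other 4 arrays had 6.29 to 6.58. Of these 8 genes, 7 were called higher at 14 d and 0 at 7 d in limma (4 at an unadjusted p under 0.05). The 15 skeletal muscle genes were divided the other way. Their mean level was 11.26 to 12.45 at 7 d and 11.10 to 11.55 at 14 d, and in naïve skin 11.85 and 11.15 in replicates 1 and 2 against 12.64 to 12.94 in the other 4 arrays. Of these 15, 9 were called lower at 14 d and none higher, with a median of -0.96, and at 7 d none was called in limma (1 at an unadjusted p under 0.05). The mean level of the 10 measured interfollicular epidermis genes, markers of the keratinocytes that make EGFR ligands, was 10.22 to 11.34 at 7 d, 10.88 to 11.11 at 14 d and 10.79 to 11.36 in naïve skin. None of the 10 was called higher, 2 were called lower at 7 d (Krt15, -0.60, and Itgb4, -0.50) and 3 at 14 d (Krt15, -1.06, Itgb4, -0.66, and Itga6, -0.32), all 3 genes of the basal layer. Other basal genes of the list, Krt5 (-0.16), Krt14 (-0.08) and Tp63 (-0.11), were not called at 14 d. No gene of the muscle or the epidermis list was dim by its group mean, and both lists had signal in every array. Fewer cells of a type and less RNA per cell cannot be told apart in such pieces.

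For 8 of the 10 genes (all but Erbb4 and Btc) naïve replicates 1 and 2 were the 2 highest of the naïve arrays, as was the case for 25.7% of all genes, and for none were they the 2 lowest, against 24.0% of all genes. Results are therefore also given without these 2 arrays. The part that hair follicle or muscle content plays in any of them was not tested. Erbb4, Nrg1 and Ereg lay below the 25th percentile of all gene means (5.50), as did the naïve mean of Areg, so that differences in them are measured close to the dim end of the arrays.

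**Figure D1:**
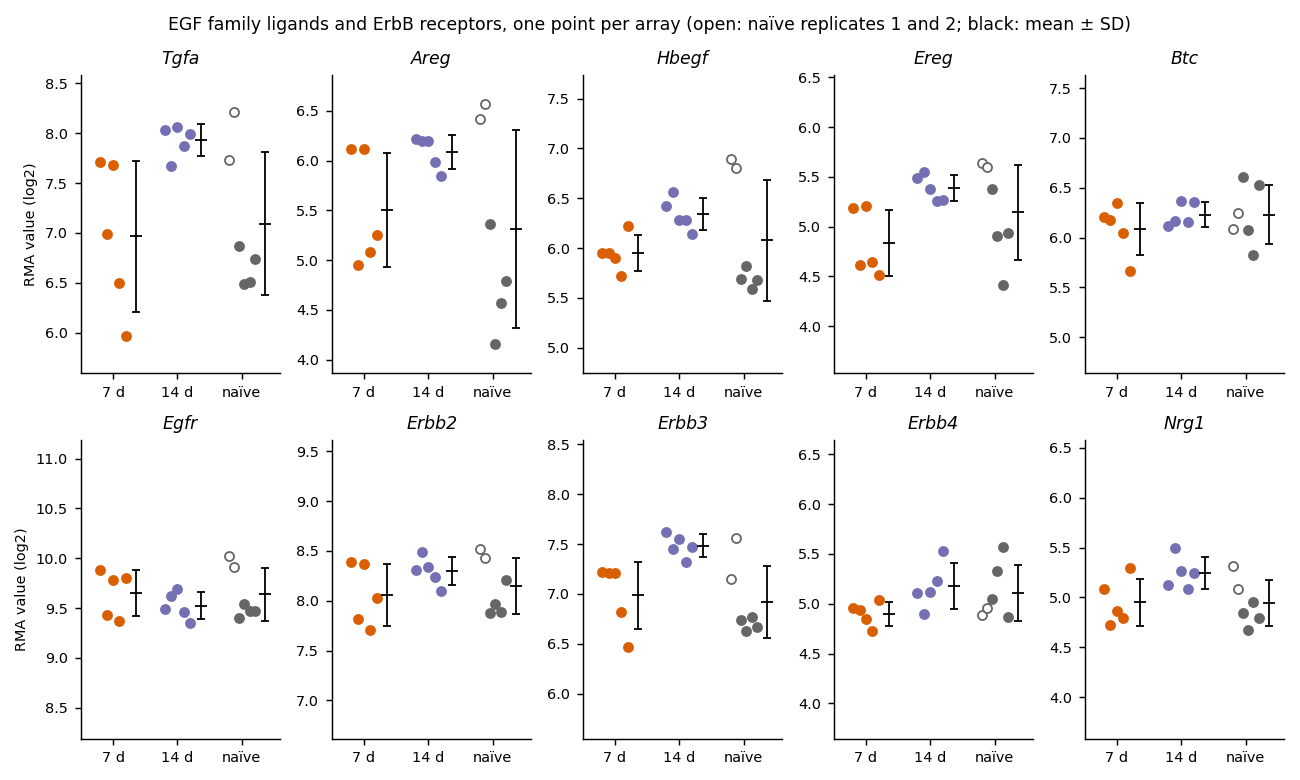
RMA value (log2) of each of the 10 genes, 1 panel per gene and 1 point per array, at 7 d (n = 5), at 14 d (n = 5) and in naïve skin (n = 6), with mean and SD in black. Every panel spans the same number of log2 units, and the open points, naïve replicates 1 and 2, sit above the other naïve arrays for 8 genes and reach 6.42 and 6.57 for Areg.

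At 7 d none of the 10 genes was called in either direction by limma, and none reached an unadjusted p under 0.05. Over all genes 7.85% were called higher and 2.66% lower. At 14 d Erbb3 was called higher and no member lower, while 3 members had an unadjusted p under 0.05 (Erbb3, Nrg1 and Tgfa), against 8.95% of all genes called higher and 14.6% lower. Between the times, 14 d against 7 d, no member was called, 4 had an unadjusted p under 0.05 (Erbb3, Ereg, Nrg1 and Tgfa), and 8.86% of all genes were called higher and 10.1% lower. With the 7 d and 14 d arrays alone in the model the same comparison called 4 members higher, Hbegf (adjusted p = 0.0180 in limma), Ereg (0.0186), Erbb3 (0.0254) and Tgfa (0.0351). The shares over all genes given above belong to the fit of all arrays and are not a background for these 4 calls. The median log2 fold change over the 10 genes was -0.11 at 7 d, 0.25 at 14 d and 0.34 between the times, beside -0.02, 0.02 and -0.01 over all genes. The comparisons at 7 d and 14 d share the naïve arrays.

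**Figure D2:**
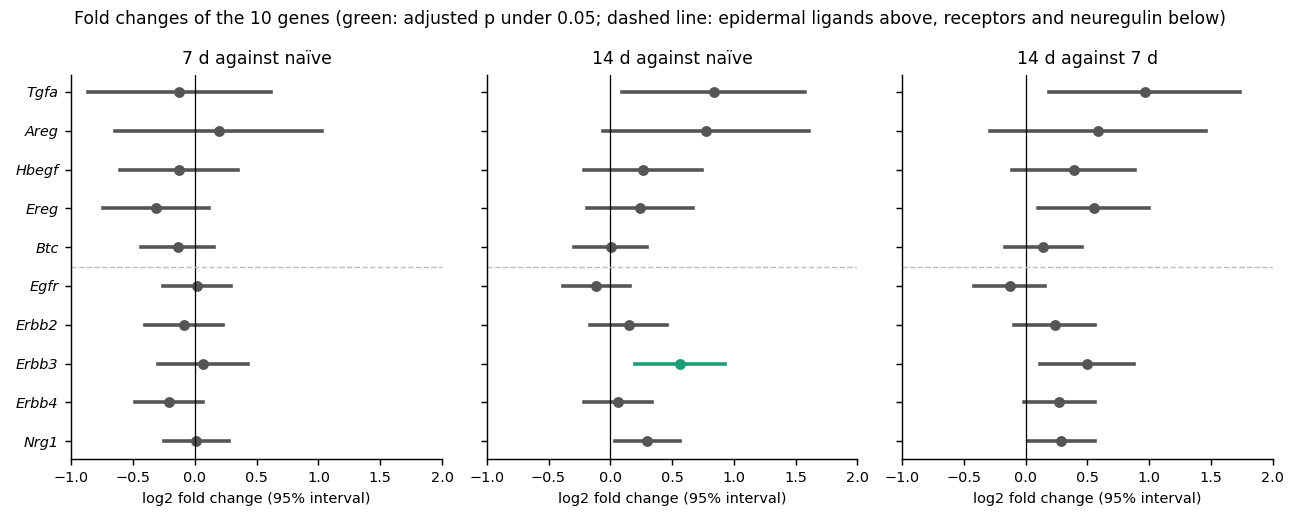
Log2 fold change with its 95% interval for each gene, at 7 d against naïve skin, at 14 d against naïve skin and at 14 d against 7 d, with EGFR ligands above the dashed line and receptors and Nrg1 below it. Only Erbb3 at 14 d, 0.57, is drawn in green as called, and the widest intervals are those of Areg and Tgfa.

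Tgfa encodes TGF-alpha, a ligand known for its part in the hair follicle and in keratinocyte migration. It had 7.71, 6.99, 7.68, 6.49 and 5.96 at 7 d, 8.04, 7.67, 8.07, 7.88 and 7.99 at 14 d, and 7.74, 8.22, 6.87, 6.48, 6.51 and 6.73 in naïve replicates 1 to 6. The 14 d arrays were all above naïve replicates 3 to 6 and all within the whole naïve range, and the 7 d arrays ran from 5.96 to 7.71. The difference was 0.84 at 14 d against naïve (SE 0.35, adjusted p = 0.0888 in limma) and 0.96 against 7 d (SE 0.36, adjusted p = 0.0727). At 7 d against naïve it was -0.13, with a 95% interval from -0.87 to 0.61. Its 2 probesets differed in size at 14 d against naïve, with 1.25 for 1387450_at and 0.42 for 1381449_s_at, and in the fit over single probesets neither was called (adjusted p = 0.0553 and 0.224).

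Areg encodes amphiregulin, an autocrine growth factor of keratinocytes. Its values were 6.11, 4.95, 6.12, 5.08 and 5.26 at 7 d, 6.22, 6.20, 6.19, 5.98 and 5.84 at 14 d, and 6.42, 6.57, 5.36, 4.16, 4.57 and 4.80 in naïve replicates 1 to 6. Replicates 1 and 3 at 7 d stood beside the 14 d arrays, and both high naïve arrays were above every denervated array. The naïve SD was 0.99, the largest of the 10 genes in any group. The difference was 0.77 at 14 d (SE 0.39, adjusted p = 0.154 in limma), 0.19 at 7 d and 0.58 between the times (adjusted p = 0.764 and 0.310).

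Hbegf encodes HB-EGF, a ligand made at wound edges. It had 5.95, 5.96, 5.90, 5.72 and 6.22 at 7 d, 6.42, 6.57, 6.28, 6.28 and 6.15 at 14 d, and 6.90, 6.80, 5.69, 5.82, 5.58 and 5.68 in naïve replicates 1 to 6. Each denervated group had a narrow spread (SD 0.18 at 7 d and 0.16 at 14 d) and the naïve group a wide one (SD 0.60), with no 14 d array outside the naïve range. The difference from naïve skin was -0.13 at 7 d and 0.26 at 14 d, and 0.39 between the times (adjusted p = 0.727, 0.403 and 0.239 in limma).

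Ereg encodes epiregulin, whose gene lies next to Areg. Its values were 5.19, 4.62, 5.20, 4.65 and 4.52 at 7 d, 5.49, 5.54, 5.38, 5.25 and 5.27 at 14 d, and 5.64, 5.60, 5.38, 4.90, 4.42 and 4.94 in naïve replicates 1 to 6. All 14 d arrays were above all 7 d arrays. This held for 9.07% of all genes, and among members for Ereg and Erbb3. The difference between the times was 0.55 (SE 0.21, adjusted p = 0.0756 in limma), and those from naïve skin were -0.31 at 7 d and 0.24 at 14 d (adjusted p = 0.310 and 0.393).

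Btc encodes betacellulin and was the ligand with the smallest differences from naïve skin at 14 d. It had 6.20, 6.18, 6.34, 6.04 and 5.67 at 7 d, 6.11, 6.16, 6.37, 6.15 and 6.36 at 14 d, and 6.08, 6.24, 6.60, 6.08, 5.83 and 6.53 in naïve replicates 1 to 6. All 14 d arrays and 4 of the 5 at 7 d lay within the naïve range, 7 d replicate 5 was below every other array, and naïve replicates 1 and 2 lay among the other naïve arrays. The difference was 0.0037 at 14 d, with a 95% interval from -0.29 to 0.30, and -0.14 at 7 d, with an interval from -0.44 to 0.16.

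Egfr, the receptor of these 5 ligands, had 9.88, 9.43, 9.78, 9.37 and 9.80 at 7 d, 9.49, 9.62, 9.69, 9.46 and 9.35 at 14 d, and 10.02, 9.91, 9.40, 9.54, 9.47 and 9.47 in naïve replicates 1 to 6. The 7 d arrays fell into 3 high and 2 low ones within the naïve range or just under it. The difference was 0.017 at 7 d and -0.11 at 14 d, with 95% intervals from -0.25 to 0.29 and from -0.39 to 0.16. None of its 3 probesets was called in any comparison.

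Erbb2, the partner receptor without a ligand, had 8.38, 7.82, 8.37, 7.71 and 8.03 at 7 d, 8.31, 8.49, 8.33, 8.24 and 8.10 at 14 d, and 8.52, 8.43, 7.88, 7.96, 7.89 and 8.21 in naïve replicates 1 to 6. No 14 d array left the naïve range. The difference was -0.09 at 7 d and 0.15 at 14 d (adjusted p = 0.715 and 0.478 in limma).

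Erbb3, the neuregulin receptor of Schwann cells that is also found in epidermis, rose at 14 d. It had 7.22, 7.21, 7.21, 6.82 and 6.47 at 7 d, 7.62, 7.45, 7.55, 7.32 and 7.48 at 14 d, and 7.15, 7.56, 6.73, 6.63, 6.77 and 6.67 in naïve replicates 1 to 6. All 14 d arrays were above all 7 d arrays and above 5 of the 6 naïve arrays, and 1 of them was above naïve replicate 2 as well. The difference was 0.57 at 14 d against naïve (SE 0.17, 95% interval from 0.20 to 0.93, adjusted p = 0.0299 in limma), 0.50 against 7 d (SE 0.18, adjusted p = 0.0610) and 0.07 at 7 d against naïve (adjusted p = 0.809). The call at 14 d was lost without naïve replicate 3, 4, 5 or 6 (adjusted p = 0.0553, 0.0699, 0.0594 and 0.0660) and without 14 d replicate 1, 2, 3 or 5 (adjusted p = 0.0645, 0.0551, 0.0616 and 0.0589), with differences of 0.51 to 0.57. Over the 16 arrays the genes with levels most like those of Erbb3 were Tgfa (Pearson r = 0.94), the gasdermin gene Gsdma (0.94) and Vsig10l (0.94), a description over arrays that share the division of the naïve group.

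Schwann cell genes, as markers of a cell type that carries Erbb3, are given beside it. The mean level of the 10 measured Schwann cell genes was 6.51 to 6.89 at 7 d, 6.65 to 6.81 at 14 d and 6.72 to 7.20 in naïve skin, lower in naïve replicates 1 and 2 (6.74 and 6.72) than in the other naïve arrays. They did not move as a group. At 7 d 3 were called lower in limma, Scn7a, a sodium channel gene of nerve (-2.55, adjusted p = 0.00493), the adhesion molecule gene L1cam (-0.34, adjusted p = 0.0188) and the myelin gene Prx (-0.42, adjusted p = 0.0225), and Ncam1, another adhesion molecule gene, was called higher (0.55, adjusted p = 0.0400). At 14 d Scn7a was called lower (-2.40, adjusted p = 0.00436) and none higher (4 at an unadjusted p under 0.05). Between the times 2 were called higher at 14 d, L1cam by 0.37 (adjusted p = 0.0131) and Sox10, the transcription factor gene of this list, by 0.50 (adjusted p = 0.0282). Ngfr was dim in naïve skin, Scn7a at both times, and Gfap at 7 d and in naïve skin.

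Erbb4, the other neuregulin receptor, had 4.96, 4.94, 4.85, 4.72 and 5.04 at 7 d, 5.10, 4.89, 5.12, 5.22 and 5.53 at 14 d, and 4.89, 4.96, 5.05, 5.33, 5.57 and 4.87 in naïve replicates 1 to 6. The groups overlapped, at values of the dim end of the arrays. The difference was -0.21 at 7 d and 0.06 at 14 d (adjusted p = 0.290 and 0.747 in limma).

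Neuregulin 1 was called higher at 14 d in 4 of its 8 probesets, while the median over all 8 was higher but not called. By the median, Nrg1 had 5.08, 4.72, 4.87, 4.79 and 5.30 at 7 d, 5.13, 5.49, 5.27, 5.08 and 5.24 at 14 d, and 5.32, 5.08, 4.84, 4.67, 4.95 and 4.79 in naïve replicates 1 to 6. The difference by the median was 0.30 at 14 d (SE 0.12, adjusted p = 0.0869 in limma), 0.01 at 7 d and 0.29 between the times (adjusted p = 0.963 and 0.120). Fitted singly among 20826 probesets, 4 of the 8 were called higher at 14 d against naïve, where 9.11% of all probesets were, and 6 of the 8 higher at 14 d than at 7 d, where 8.91% were. At 7 d against naïve 1 was called lower (1388245_a_at, -0.21, adjusted p = 0.0472), where 2.06% of all probesets were, and none higher.

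Probeset 1371218_a_at had 6.41, 5.11, 5.56, 5.46 and 6.43 at 7 d, 6.89, 7.24, 7.08, 6.86 and 7.22 at 14 d, and 6.29, 6.46, 5.58, 5.39, 5.32 and 5.50 in naïve replicates 1 to 6. Every 14 d array was above every naïve and every 7 d array, the high naïve replicates 1 and 2 included. The difference was 1.30 against naïve (SE 0.26, adjusted p = 0.00491 in limma over all probesets) and 1.26 against 7 d (SE 0.27, adjusted p = 0.00804).

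Probeset 1369783_a_at had 6.09, 5.24, 5.84, 5.26 and 6.15 at 7 d, 6.39, 6.67, 6.63, 6.44 and 6.59 at 14 d, and 6.02, 5.94, 5.40, 5.51, 5.25 and 5.38 in naïve replicates 1 to 6. Here too no 14 d array overlapped either of the other groups. The difference was 0.96 against naïve (SE 0.18, adjusted p = 0.00388 in limma) and 0.83 against 7 d (SE 0.19, adjusted p = 0.0111). Such a complete separation from naïve skin at 14 d held for 3.61% of all probesets and for these 2 of Nrg1, and for 3.69% of all genes and no member. Separation of 14 d from 7 d held for 8.99% of all probesets and for 5 of the 8 of Nrg1.

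Probeset 1371211_a_at was dim in all groups (4.63, 3.89, 4.40, 4.17 and 4.49 at 7 d, 4.93, 5.61, 4.85, 4.67 and 5.03 at 14 d, and 4.82, 4.72, 4.09, 3.84, 3.72 and 3.92 in naïve replicates 1 to 6). Its difference at 14 d was 0.83 against naïve (adjusted p = 0.0166 in limma), with 1 of the 5 arrays inside the naïve range. The fourth probeset called, 1370616_at, moved by 0.23 (adjusted p = 0.0259). It lost its call without naïve replicate 4 or 5 (adjusted p = 0.0581 and 0.0525), without 14 d replicate 2 or 5 (0.0649 and 0.0517) and after renewed quantile normalization (0.18, adjusted p = 0.0653), while the other 3 kept theirs in each of these fits and without any other single array. The remaining 4 probesets differed by 0.10 to 0.36 at 14 d, and none was called (adjusted p from 0.0911 to 0.298). Which of the many Nrg1 transcripts each probeset reads was not examined.

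**Figure D3:**
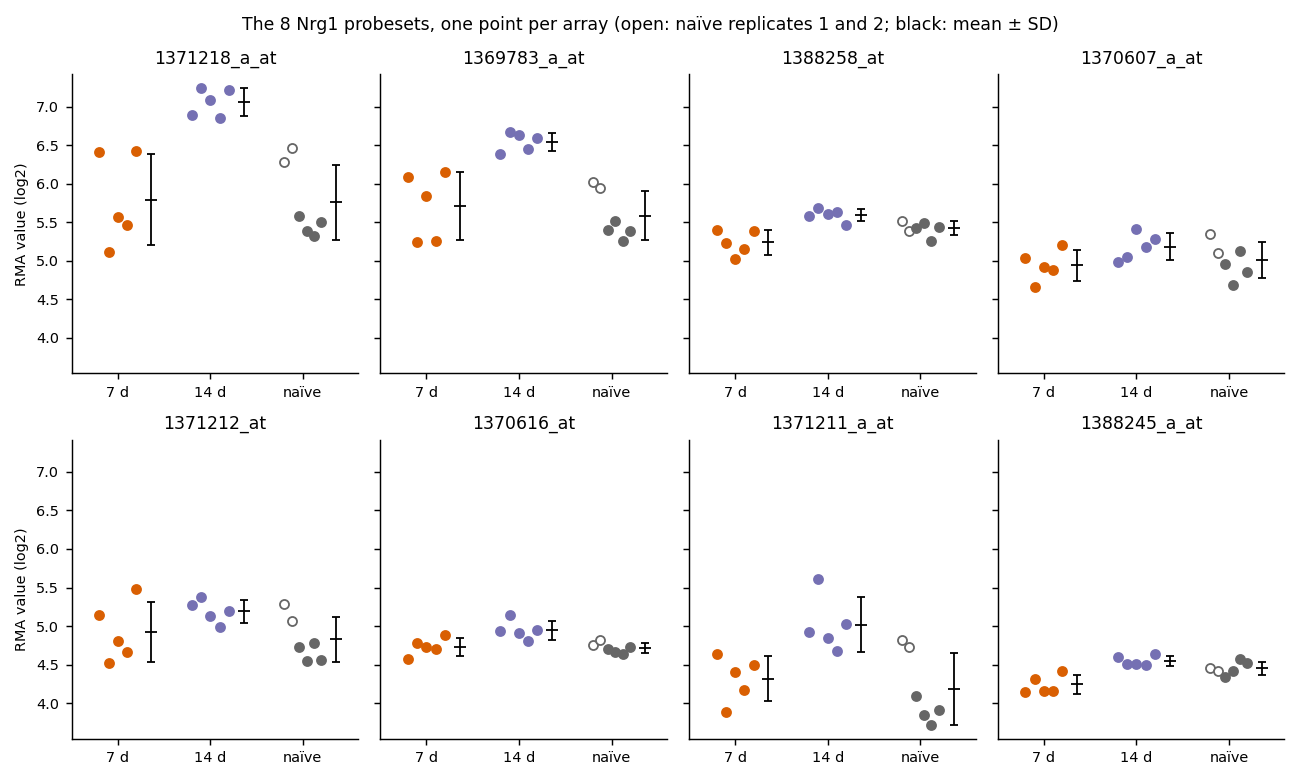
RMA value (log2) of each of the 8 Nrg1 probesets, 1 point per array, at 7 d, at 14 d and in naïve skin, with mean and SD in black and naïve replicates 1 and 2 as open points. In 1371218_a_at and 1369783_a_at the 14 d arrays start at 6.86 and 6.39, above the highest naïve values of 6.46 and 6.02.

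At gene level the 14 d arrays stood mostly within the naïve range, which naïve replicates 1 and 2 widened. For all 5 EGFR ligands each of the 5 arrays at 14 d lay within it, and for Areg, Hbegf and Tgfa all 5 were at the same time above naïve replicates 3 to 6. For Erbb3 and for Nrg1 by its median, 4 of the 5 lay within the range and 1 above it. The 8 Nrg1 probesets were unlike each other here, with all 5 arrays above the range in 1371218_a_at and 1369783_a_at, 4 in each of 3 others, 2 in 1388245_a_at and 1 in each of 1370607_a_at and 1371212_at. The difference between ligand and neuregulin responses was itself not tested. Without naïve replicates 1 and 2, a choice that follows the hair follicle level, 6 members were called higher at 14 d in limma. These were Areg (1.36, adjusted p = 0.00100), Tgfa (1.28, adjusted p = 0.00271), Erbb3 (0.78, adjusted p = 0.000382), Hbegf (0.65, adjusted p = 0.000144), Ereg (0.48, adjusted p = 0.0492) and Nrg1 (0.43, adjusted p = 0.00846). At 7 d Areg alone was called (0.78, adjusted p = 0.0368), and between the times 4 members were. Over all genes this fit called 2706 higher at 7 d, against 1116 with all arrays. The shares over all genes given for the fit of all arrays are thus not a background for these calls. The calls are not read as particular to the family. The 6 members called at 14 d are all among the 8 for which replicates 1 and 2 were the highest naïve arrays. Leaving these 2 arrays out therefore raises their differences by itself. Without naïve replicates 4 and 5 no member was called at 14 d, Erbb3 having 0.46 (adjusted p = 0.142), and 2 Nrg1 probesets remained called, 1371218_a_at with 1.10 (adjusted p = 0.0325) and 1369783_a_at with 0.86 (adjusted p = 0.0262).

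With the hair follicle level as a covariate, no member was called higher at 14 d. Erbb3 then had 0.17 (adjusted p = 0.621), 1371218_a_at 0.59 (adjusted p = 0.153) and 1369783_a_at 0.47 (adjusted p = 0.128), and Egfr (-0.48, adjusted p = 0.0268) and Hbegf (-0.47, adjusted p = 0.0438) were called lower. The direction at 14 d also turned for Areg (-0.43), Ereg (-0.25), Erbb2 (-0.22) and Tgfa (-0.037), none of them called. With the mean level of the skeletal muscle genes as a covariate Erbb3 had 0.13 (adjusted p = 0.678), and Areg (-0.45), Ereg (-0.32), Hbegf (-0.28), Erbb2 (-0.24), Tgfa (-0.17) and Btc (-0.058) turned without a call. The 14 d arrays and naïve replicates 1 and 2 had nearly the same hair follicle level, and at that level the 14 d arrays were above both naïve arrays in the 2 Nrg1 probesets, below both in Areg and Hbegf, and mostly between them in Tgfa and Erbb3. The other 4 naïve arrays had levels of 6.29 to 6.58. The fit with the hair follicle covariate thus sets 14 d beside naïve skin mainly through replicates 1 and 2 and a fitted slope.

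**Figure D4:**
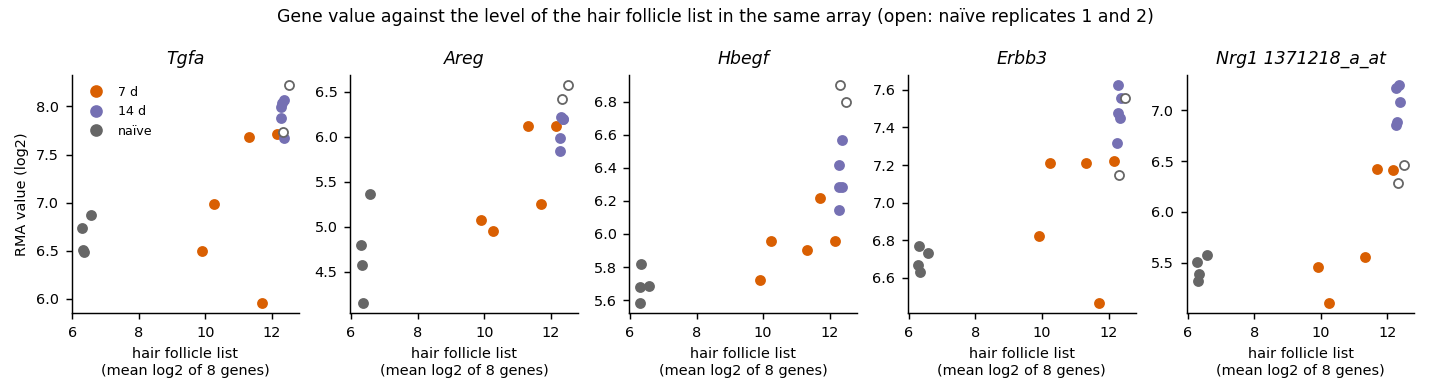
RMA value (log2) of Tgfa, Areg, Hbegf, Erbb3 and Nrg1 probeset 1371218_a_at against the mean level of the 8 hair follicle genes in the same array, at 7 d, at 14 d and in naïve skin, with naïve replicates 1 and 2 as open points. The open points top those of Areg and Hbegf and lie below all 14 d points in the Nrg1 probeset, while the 4 other naïve arrays sit between 6.29 and 6.58 on the horizontal axis.

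Other ligands of the family were given by 3 measured genes, Egf, Nrg2 and Nrg4. Egf, which names the family and was dim by its mean in every group, fell at 14 d by 1.04 (SE 0.33, adjusted p = 0.0342 in limma). It had 4.29 to 4.54 at 14 d, against 4.61 and 4.43 in naïve replicates 1 and 2 and values of 5.20 to 6.49 in replicates 3 to 6, so that it was lowest where the hair follicle level was high. Nrg4, a ligand of ErbB4, fell by 0.41 at 14 d (SE 0.10, adjusted p = 0.0120), with means of 5.58 ± 0.16 at 14 d (SD, n = 5) and 5.99 ± 0.19 in naïve skin (SD, n = 6). At 7 d none of the 3 was called in limma, and 2 had an unadjusted p under 0.05.

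Of 10 measured genes for ligand shedding, Adam19 rose at 7 d by 0.82 (adjusted p = 0.00350 in limma), with 6.57 ± 0.37 at 7 d (SD, n = 5) and 5.76 ± 0.18 in naïve skin (SD, n = 6), and no other was called. This protease can cleave neuregulins. At 14 d Adam10, the main sheddase of EGF and betacellulin, was higher by 0.65 (adjusted p = 0.0449) and Bace1, which cleaves neuregulin 1 in nerve, by 0.32 (adjusted p = 0.0300). Bace1 was dim in every group. It had 5.20 to 5.48 at 14 d, and 5.41 and 5.09 in naïve replicates 1 and 2. In naïve replicates 3 to 6 Bace1 had 4.81 to 4.96. Adam10 had 7.07 to 7.18 at 14 d, against 7.14 and 7.30 in naïve replicates 1 and 2 and values of 5.84 to 6.56 in replicates 3 to 6. Between the times 4 were lower at 14 d and none higher, Adam17 by 0.43, Adam19 by 0.50, Adam15 by 0.69 and Rhbdf1 by 0.22. Adam17 is the sheddase of TGF-alpha, amphiregulin and HB-EGF, and Rhbdf1 encodes iRhom1, which brings it to the cell surface. Markers of other cell types moved at the same time. At 7 d 10 of 14 macrophage genes, 4 of 9 fibroblast genes and 3 of 4 endothelium genes were called higher and none lower, and between the times 3 macrophage and 2 endothelium genes were called lower at 14 d, and no fibroblast gene (1 at an unadjusted p under 0.05). The mean level of the macrophage list was 8.65 to 9.40 at 7 d, 8.32 to 8.67 at 14 d and 6.48 to 8.94 in naïve skin. That of the fibroblast list was 10.76 to 11.50 at 7 d, 10.53 to 10.86 at 14 d and 8.70 to 10.73 in naïve skin, and that of the endothelium list 7.02 to 7.70 at 7 d, 6.85 to 7.12 at 14 d and 6.52 to 7.30 in naïve skin. No gene of these lists was dim in any group. Their part in the change of Adam19, or of any other gene called at 7 d, was not tested.

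Feedback regulators of the receptors moved in both directions. Of 12 measured, Socs5 was called higher (0.51) and Lrig1, which promotes receptor breakdown and marks stem cells of the follicle, lower (-0.37, adjusted p = 0.0425 in limma) at 7 d. At 14 d Spry4, a target and inhibitor of the pathway, was higher by 0.66 (adjusted p = 0.00850), while Lrig1 (-0.54, adjusted p = 0.00562) and the ubiquitin ligase gene Cblb (-0.42, adjusted p = 0.0423) were lower. Lrig1 had 8.61 to 8.97 at 14 d, against 9.10 to 9.59 in the naïve arrays, with no overlap between the groups, as was so in this direction for 6.66% of all genes. Spry4 had 8.36 to 8.54 at 14 d, against 7.23 to 8.30 in the naïve arrays, a separation upward that held for 3.69% of all genes. Between the times Spry4 and Cblc were higher and Socs5 and Cblb lower at 14 d.

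Among 17 measured adaptors and kinases, 4 were called higher at 7 d (among them Shc1 by 0.73, Stat3 by 0.33 and Grb2 by 0.26) and Sos2 lower (-0.41, adjusted p = 0.0251 in limma), while the macrophage, fibroblast and endothelium genes were higher in the same comparison. At 14 d none was called higher in limma and 4 were lower, Sos2 (-0.68), Pik3ca (-0.37), Map2k1 (-0.24) and Sos1 (-0.19), and 6 had an unadjusted p under 0.05. Map2k1 had 8.85 to 8.94 at 14 d, and 8.98 and 8.93 in naïve replicates 1 and 2. In naïve replicates 3 to 6 Map2k1 had 9.16 to 9.27. Sos1 and Sos2 encode the exchange factors that link the receptors to Ras. Between the times 5 were lower at 14 d, with Shc1 the largest (-0.62), and Pik3r1 was higher (0.95).

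Of 12 genes taken as output of ERK signalling, Plaur, the urokinase receptor, was called higher at 7 d (0.75, adjusted p = 0.00294 in limma), together with the macrophage genes, and Fosl1, an AP-1 subunit, at 14 d (0.43, adjusted p = 0.0259). Plaur was dim in every group. Fosl1 had 5.98 to 6.23 at 14 d, and 6.24 and 5.86 in naïve replicates 1 and 2. In naïve replicates 3 to 6 Fosl1 had 5.47 to 5.59. Between the times Dusp5 (1.40, adjusted p = 0.0327), Dusp4 (0.45) and Fosl1 (0.41) were higher at 14 d and Plaur was lower (-0.50). Dusp5, an ERK phosphatase, had 8.12, 7.79, 7.69, 6.65 and 7.24 at 7 d, 8.84, 8.96, 9.15, 8.68 and 8.86 at 14 d, and 8.91, 9.08, 7.77, 6.77, 6.68 and 7.70 in naïve replicates 1 to 6. Naïve replicates 1 and 2 stood beside the 14 d arrays and above the other naïve arrays, as they did above those for Areg and Tgfa. The medians of the pathway lists at 14 d against naïve were -0.41 for the other ligands, -0.03 for shedding, 0.12 for feedback, 0.0094 for adaptors and kinases and 0.33 for ERK output, beside 0.02 over all genes.

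**Figure D5:**
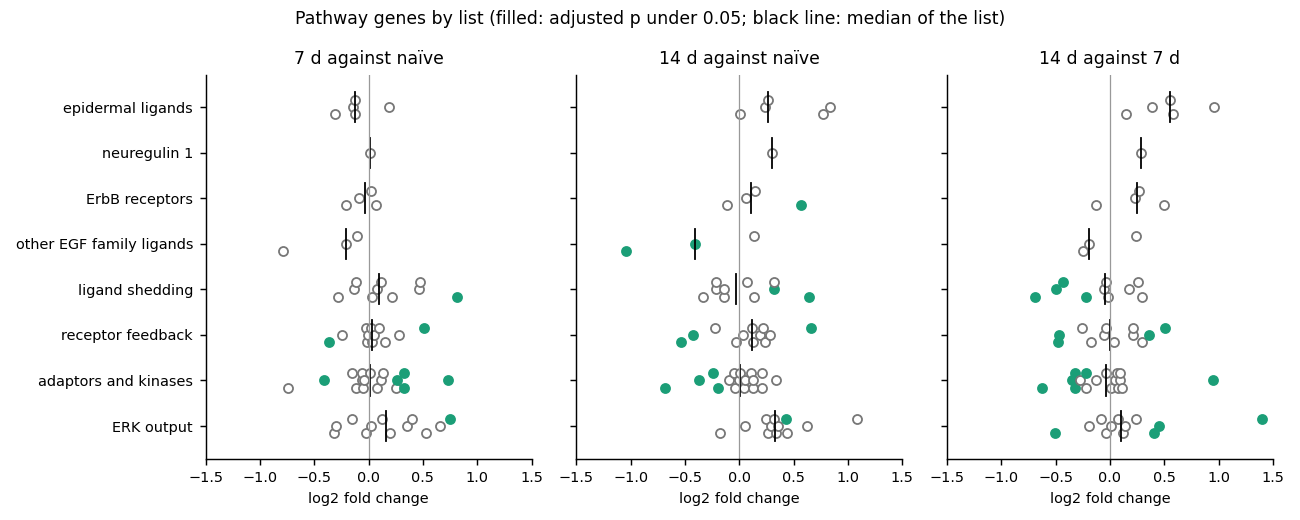
Log2 fold change of every measured gene of the family and of the 5 pathway lists, at 7 d against naïve skin, at 14 d against naïve skin and at 14 d against 7 d, with called genes filled and the median of each list as a black line. At 14 d the lists hold called genes on both sides, from Egf at -1.04 to Spry4 at 0.66.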

How the data were processed

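Gene expression in dorsal skin was measured on 16 whole-genome Affymetrix rat arrays, 1 per rat. The authors made log2 values with RMA in R 3.0.1 before they deposited them (no version is stated for the RMA code). Of 31099 probesets, 57 controls, 9780 without a gene and 436 with several genes were left out, and the 20826 with 1 gene gave 14217 genes, each as the median of its probesets (4525 had several). Values run from 3.31 to 14.39, without a depth of reads.

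Groups were compared with limma 3.58.1 (R 4.3.3), all arrays entering a single fit of group means, with Benjamini-Hochberg adjustment over all 14217 genes, or over all 20826 probesets where these are named. The script was tested on simulated data. All 10 members are named with every array, from other lists at most 4 called genes per comparison with the largest statistics, and for called members the 3 genes of highest correlation. Members, gene lists, alternatives and promoter motifs were chosen with earlier results of these data known, so that no list is independent support. The labels give no batches. Labels and methods differ on which caudal nerves were cut, which does not touch the region sampled.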

Additional observations from a re-analysis of the deposited data

Results flagged for a closer look

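Probesets of Nrg1 differed between the times after denervation, while the median over all 8 was not called (0.29, adjusted p = 0.120 in limma). In 6 of the 8 Nrg1 probesets the value at 14 d minus that at 7 d passed the test of the difference itself in limma over all probesets. The difference was 1.26 for 1371218_a_at, 0.83 for 1369783_a_at, 0.70 for 1371211_a_at, 0.36 for 1388258_at, 0.31 for 1388245_a_at and 0.21 for 1370616_at. The probesets read 1 gene in the same arrays and are not independent of each other. Against naïve skin, 1388258_at and 1388245_a_at differed by -0.18 and -0.21 at 7 d and by 0.17 and 0.10, not called, at 14 d. The group means of 1371211_a_at, 1388245_a_at and 1370616_at were all under 5.37, the dim limit of the probesets.

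Among 69 group-wise checks for an array standing apart, over the 10 genes and the 13 probesets of Egfr, Nrg1 and Tgfa, 1 array did so. The Tgfa probeset 1381449_s_at had 7.66 in 14 d replicate 2, below the other 14 d arrays, the nearest of which had 8.03. Chance marks about 1 in 20 groups in such checks.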

How the results depend on the processing

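The call of Erbb3 at 14 d held in all alternatives that kept every array and the threshold, except with either tissue score as a covariate. Counts over all genes moved under the same alternatives, with array weights to 2131 higher at 7 d against 1116 as reported. The following counts of members and of Nrg1 probesets therefore have no common background share and are not set against one. Of the 10 genes, the number called higher at 14 d against naïve skin was 1 as reported, 5 with array weights, 2 with the probeset of highest mean and 2 with probesets taken singly. It was 6 without naïve replicates 1 and 2, 0 without naïve replicates 4 and 5, 0 with the hair follicle score or the sarcomere score as covariate, 0 at an adjusted p under 0.01, 3 at an adjusted p under 0.1, and 0 to 3 when arrays were left out singly (0 without naïve replicate 3, 4, 5 or 6 or 14 d replicate 1, 2, 3 or 5, 2 without naïve replicate 1 and 3 without naïve replicate 2). The hair follicle score gave 2 called lower at 14 d, 2 called lower at 7 d and 1 called lower between the times, the sarcomere score 1 and single probesets 1 called lower at 7 d, and leaving out naïve replicates 1 and 2 gave 1 called higher at 7 d. Between the times, 0 as reported, the number called higher was 4 with array weights, 4 with only these groups in the model, 4 without naïve replicates 1 and 2, 1 without naïve replicates 4 and 5, 2 with array medians subtracted, 1 after renewed quantile normalization, 1 with the probeset of highest mean, 1 with single probesets, 3 at an adjusted p under 0.1, and 0 to 2 when arrays were left out singly.

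The replicate numbers of the labels did not pair the arrays, with correlations of same-numbered deviations from -0.55 to 0.58. With the replicate block, 2 members (Erbb3 and Ereg) were called higher between the times, no Nrg1 probeset was called lower at 7 d (0), and Erbb3 at 14 d had 0.52 (adjusted p = 0.0485 in limma). The 4 Nrg1 probesets called at 14 d became 7 with array weights, 3 after renewed quantile normalization and 3 with the replicate block, where 1370616_at lost its call (adjusted p = 0.0653 and 0.0519), 0 with either score as covariate, 2 without naïve replicates 4 and 5, 2 at an adjusted p under 0.01, and 3 to 5 when arrays were left out singly. The 6 called between the times became 4 after renewed quantile normalization, 4 with the replicate block and 3 at an adjusted p under 0.01. The 1 called lower at 7 d became 2 with array medians subtracted, 0 after renewed quantile normalization, with only these groups in the model, with either score, without naïve replicates 4 and 5 and at an adjusted p under 0.01, and 0 to 1 when arrays were left out singly. The alternatives for Nrg1 probesets were added after seeing the data.

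Differences changed sign under several alternatives, the larger ones of Areg and Tgfa at 14 d (0.77 and 0.84 as reported) only with either score as covariate. With array medians subtracted the sign turned for Egfr -0.057, Erbb3 -0.0060, Nrg1 -0.064 at 7 d, and Btc -0.017 at 14 d. After renewed quantile normalization the sign turned for Egfr -0.027, Erbb3 -0.0019 at 7 d, and Btc -0.049 at 14 d, and Egfr 0.024 between the times. With the probeset of highest mean per gene the sign turned for Egfr 0.048 at 14 d. With array weights the sign turned for Erbb2 0.0017, Hbegf 0.12, Tgfa 0.27 at 7 d, and Egfr 0.011, Btc -0.14 at 14 d. With the replicate block the sign turned for Egfr -0.016, Nrg1 -0.020 at 7 d. With the hair follicle score as covariate the sign turned for Egfr -0.23, Erbb3 -0.20, Nrg1 -0.19, Areg -0.63 at 7 d, and Erbb2 -0.22, Areg -0.43, Ereg -0.25, Hbegf -0.47, Tgfa -0.037, Nrg1 1370607_a_at -0.063, Nrg1 1371212_at -0.041 at 14 d. With the sarcomere score as covariate the sign turned for Egfr -0.13, Erbb3 -0.13, Nrg1 -0.073, Areg -0.38 at 7 d, and Erbb2 -0.24, Areg -0.45, Ereg -0.32, Hbegf -0.28, Tgfa -0.17, Btc -0.058 at 14 d, and Areg -0.074 between the times. Without naïve replicates 1 and 2 the sign turned for Erbb2 0.077, Hbegf 0.26, Tgfa 0.32 at 7 d, and Egfr 0.053, Erbb4 -0.031, Btc -0.028 at 14 d. Without naïve replicates 4 and 5 the sign turned for Egfr -0.048, Erbb3 -0.041, Nrg1 -0.056, Areg -0.28 at 7 d, and Ereg -0.0032, Btc -0.13 at 14 d. Over fits that each left out 1 array, the sign turned in the ranges Egfr -0.039 to 0.095 at 7 d, Erbb2 -0.17 to 0.0016 at 7 d, Nrg1 -0.076 to 0.085 at 7 d, Areg -0.039 to 0.44 at 7 d, Hbegf -0.23 to 0.038 at 7 d, Tgfa -0.31 to 0.13 at 7 d, Erbb4 -0.025 to 0.15 at 14 d, Btc -0.076 to 0.079 at 14 d. The cause was not tested. None of these reversals reached an adjusted p under 0.05 except Hbegf at 14 d with the hair follicle score.

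Over all genes the counts called moved by over 1.5 times under many alternatives. At 7 d they ran from 264 to 2706 higher (1116 as reported) and from 31 to 2334 lower (378), at 14 d from 79 to 3572 higher (1272) and from 208 to 3411 lower (2071), and between the times from 224 to 2265 higher (1260) and from 329 to 2589 lower (1430). With array medians subtracted, 7 d against naïve gave 951 higher and 1492 lower, and after renewed quantile normalization 14 d against 7 d gave 918 higher and 720 lower. The number of arrays limits the precision, as does the dim signal of Erbb4, Ereg and most Nrg1 probesets.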
